A study of Mus musculus with 6 samples.

Results

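The 10 genes *P4ha1*, *Crtap*, *Plod1*, *Serpinh1*, *Bmp1*, *Pcolce*, *Pcolce2*, *Lox*, *Loxl1* and *Loxl2* encode the enzymes and helper proteins that turn a newly made collagen chain into a cross-linked fiber. They were found by symbol in the deposited normalized table of 16247 genes and joined to the raw count table of 51912 genes by gene identifier, and 10 of 10 were present. Each was compared between the soleus of 3 mice heterozygous for the Mustn1 KO-first allele (HET) and 3 wild-type mice (WT), with 1 RNA-seq library per mouse. All 6 mice were 8 weeks old and of strain C57BL6/N. The KO-first allele is a whole-body gene trap in which exon 1 of *Mustn1* is spliced into a lacZ element, and the HET mice kept 1 intact copy. The WT mice were littermates, without a record of which mice shared a litter, and neither genotype had any other treatment.

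The labels call the mice male. Yet *Xist* had 3858 to 9154 reads per library, and *Ddx3y*, *Kdm5d*, *Uty* and *Eif2s3y*, which lie on the Y chromosome, summed to at most 12, so the reads went against the label in both genotypes. Libraries held between 26790075 and 50368796 reads on genes. *Mustn1* had 471, 452 and 574 reads in HET mice 1, 2 and 3, against 691, 817 and 1504 reads in WT mice 1, 2 and 3. The log2 fold change of *Mustn1*, HET over WT, was -0.96 with a standard error (SE) of 0.15 and an adjusted p of 0.0452, so the targeted gene was lower in every HET library. With single mice left out, that adjusted p lay between 0.0314 and 0.28. The 8 slow-fiber markers, led by *Myh7*, summed to between 37300 and 42400 CPM in the 6 libraries and were thus abundant in every mouse. CPM, the usual read count scaled to the size of the library, here includes TMM scaling, which corrects for differences in composition between libraries.

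Fibrillar collagens are made as procollagen chains in the endoplasmic reticulum (ER), where prolines and lysines are hydroxylated and a collagen-specific chaperone stabilizes the triple helix. After secretion, the C-terminal propeptide is cut off by the procollagen C-proteinase, with the help of enhancer proteins, and the trimmed molecules assemble into fibrils. Copper-dependent lysyl oxidases then oxidize lysines and hydroxylysines, and the products react to form the cross-links that give the matrix of muscle and tendon its stiffness.

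In GRCm38, the build of the count table, the 10 genes lie on 7 chromosomes. *Pcolce2* (chr9:95637601-95698096, plus strand), *Loxl1* (chr9:58287738-58313186, minus) and *Crtap* (chr9:114375134-114390675, minus) share chromosome 9. *Bmp1* (chr14:70474557-70520260, minus) and *Loxl2* (chr14:69609068-69695834, plus) share chromosome 14 with *Mustn1*. *P4ha1* lies at chr10:59323296-59373304 on the plus strand. *Plod1* (chr4:147909753-147936767), *Pcolce* (chr5:137605103-137613784) and *Serpinh1* (chr7:99345376-99353239) are on the minus strand, as is *Lox*. The genes are annotated with between 5 and 20 exons in their longest protein-coding transcript, *Serpinh1* with 5 and *Bmp1* with 20.

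Several of the genes are paralogs, so it was asked whether their reads could be told apart. The transcripts of *Loxl1* and *Loxl2* share no run longer than 28 bases, those of *Lox* and *Loxl1* none longer than 32, and those of *Pcolce* and *Pcolce2* none longer than 12. No word of 50 bases, a length chosen to stand for a read, was shared in any of the 4 pairs examined. The stretch of coding sequence below surrounds the histidines that hold the copper ion of lysyl oxidases, a conserved part of the enzymes, and it is shown because the paralogs differ at many bases even there. It runs from codon 478 to codon 497 of *Loxl1* and from codon 624 to codon 643 of *Loxl2*, 5′ to 3′ on the coding strand, in the GENCODE M21 transcripts of GRCm38. Capitals mark the bases that differ, and 44 of 60 bases, or 73.3%, are identical.
Loxl1: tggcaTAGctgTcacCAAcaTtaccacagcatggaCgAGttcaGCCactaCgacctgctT
Loxl2: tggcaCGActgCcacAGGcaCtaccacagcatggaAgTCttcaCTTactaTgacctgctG
Overlapping exons were looked up in the annotation as another source of shared reads. *Pcolce* shares 112 exon bases with a gene on the same strand, *Fbxo24*, and *Loxl2* shares 7 with *Mir6950*. On the opposite strand, *Loxl2* shares 301 with *Gm27177* and *Pcolce* 112 with *Gm36266*, which matters only if counting ignored strand. The other 8 genes share no exon base with a gene on either strand.

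Across the set, all 10 genes had a higher mean in HET than in WT, by between 0.09 and 1.09 on the log2 scale. Their median log2 fold change was 0.63, against -0.02 over the 14696 genes tested, of which 45.6% were above 0. In the main test, the quasi-likelihood test of edgeR with Benjamini-Hochberg adjustment, 0 of the 10 genes passed an adjusted p of 0.05, and 0.143% of all genes tested did so in the same direction. An unadjusted p under 0.05 with a higher HET mean was reached by 8 of the 10, against 5.76% of all genes. In 7 of the 10 the lowest HET mouse exceeded the highest WT mouse, against 7.55% of all genes. The number past the threshold depended on the tool. The Wald test of DESeq2 called 7 of the 10 as higher, where it called 1.41% of the genes it adjusted, and edgeR without a filter on low counts called 8, where it called 1.33%. The limma-voom test and edgeR with a non-robust dispersion called 0 of the 10, where they called 0.0204% and 0.0408% of all genes as higher. No fit called a member lower.

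The prolyl 4-hydroxylase subunit *P4ha1*, which hydroxylates the prolines that keep the triple helix stable at body temperature, had 30.6, 38.6 and 42.4 CPM in HET mice 1, 2 and 3. In WT mice 1, 2 and 3 it had 31.4, 34.4 and 29.9 CPM. HET mouse 1 sat among the WT mice, and the genotypes overlapped. With a log2 fold change of 0.22 (SE 0.13, adjusted p = 0.788), *P4ha1* did not pass the test with any tool or setting. *Plod1*, the lysyl hydroxylase that modifies helical lysines and so sets the kind of cross-link that can form later, had 45.6, 61.5 and 54.3 CPM in HET mice and 50.7, 52.4 and 48.6 CPM in WT mice. The lowest and the highest of the 6 values both came from HET mice. Its log2 fold change of 0.09 (SE 0.11, adjusted p = 0.924) was the smallest of the 10. The coefficient of variation of *Plod1* was 14.8% among HET and 3.80% among WT mice.

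*Crtap* encodes the cartilage-associated protein, a part of the prolyl 3-hydroxylation complex of the ER. Its levels were 7.72, 12.5 and 11.1 CPM in HET mice 1, 2 and 3, and 5.75, 7.24 and 6.46 CPM in WT mice 1, 2 and 3. All HET mice were above all WT mice, although HET mouse 1 exceeded WT mouse 2 by only 0.484 CPM. *Crtap* had a log2 fold change of 0.69 (SE 0.19, adjusted p = 0.24), and DESeq2 gave an adjusted p of 0.0393.

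*Serpinh1*, also known as Hsp47, is the chaperone that binds procollagen in the ER and travels with it to the Golgi. It had 104, 144 and 144 CPM in HET mice and 91.6, 109 and 80.8 CPM in WT mice. HET mice 2 and 3 stood well above the rest, while HET mouse 1 was below WT mouse 2. The log2 fold change was 0.48 (SE 0.15, adjusted p = 0.344), with an adjusted p of 0.0774 by DESeq2. Thus, of the 4 genes that act inside the ER, *Crtap* alone had genotypes that did not overlap, and the difference between the ER genes and the secreted ones was not tested.

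Outside the cell, *Bmp1* encodes the procollagen C-proteinase, which also activates the lysyl oxidase precursor. It had 24.3, 25.7 and 29.3 CPM in HET mice 1, 2 and 3, and 15.3, 19.4 and 20.1 CPM in WT mice 1, 2 and 3. The lowest HET mouse was 4.19 CPM above the highest WT mouse. *Bmp1* had a log2 fold change of 0.53 (SE 0.13), which is a 1.45-fold higher level, with an adjusted p of 0.174 in the main test and 0.0247 by DESeq2. It had the smallest coefficient of variation among HET mice, at 9.78%.

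*Pcolce* and *Pcolce2* encode the enhancers that bind procollagen and speed up its cleavage by the C-proteinase. *Pcolce* had 41.8, 51.3 and 57.2 CPM in HET mice and 20.7, 32.3 and 31.2 CPM in WT mice. The gap between the genotypes was 9.53 CPM, and WT mouse 1 lay below the other WT mice by more than that gap. For *Pcolce*, the log2 fold change was 0.83 (SE 0.18, adjusted p = 0.131), or 1.78-fold, and DESeq2 gave an adjusted p of 0.000315. *Pcolce2* was far less abundant, with 7.0, 8.61 and 10.7 CPM in HET mice 1, 2 and 3, and 2.74, 3.83 and 5.63 CPM in WT mice 1, 2 and 3. These values rest on between 82 and 469 reads per library. The genotypes did not overlap, with 1.37 CPM between HET mouse 1 and WT mouse 3. At 1.09 (SE 0.25) its log2 fold change was the largest of the 10, or 2.13-fold, with an adjusted p of 0.174 in the main test and 0.00214 by DESeq2. Leaving out WT mouse 3, which had the highest *Pcolce2* level of the WT mice, took the log2 fold change to 1.42 and the adjusted p to 0.032. In the 5 fits that left out another mouse, the adjusted p lay between 0.186 and 0.615 and the log2 fold change went down to 0.88.

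The lysyl oxidase *Lox* (chr18:52516069-52529867, minus strand), the founding member of the cross-linking family, had 14.8, 17.1 and 24.4 CPM in HET mice 1, 2 and 3. In WT mice 1, 2 and 3 it had 6.79, 9.90 and 10.8 CPM. The genotypes did not overlap, and HET mouse 3 stood apart at the top. *Lox* had a log2 fold change of 1.03 (SE 0.22, adjusted p = 0.131), or 2.05-fold, and the adjusted p by DESeq2 was 0.000246. When single mice were left out, the log2 fold change of *Lox* lay between 0.80 and 1.18 and the adjusted p between 0.0826 and 0.406.

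*Loxl1* encodes the paralog best known for the cross-linking of elastin. Its levels were 26.2, 31.3 and 31.9 CPM in HET mice and 17.4, 18.8 and 23.6 CPM in WT mice, without overlap. Its log2 fold change was 0.58 (SE 0.13, adjusted p = 0.159), and the adjusted p was 0.0113 by DESeq2 and 0.0469 in edgeR without WT mouse 3, against between 0.178 and 0.574 in the 5 fits without another mouse. *Loxl2*, a paralog that cross-links collagen IV of basement membranes among other substrates, had 24.8, 23.5 and 36.8 CPM in HET mice and 12.5, 18.9 and 17.7 CPM in WT mice. It was the only member of the 10 in which HET mouse 1 was not the lowest of the HET mice. The log2 fold change of *Loxl2* was 0.80 (SE 0.20, adjusted p = 0.237), with 0.00438 by DESeq2. An exact permutation test over the mice, two-sided, gave p = 0.1 for each of the 7 genes without overlap, which is the smallest p that 3 mice against 3 allow.

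**Figure D1:**
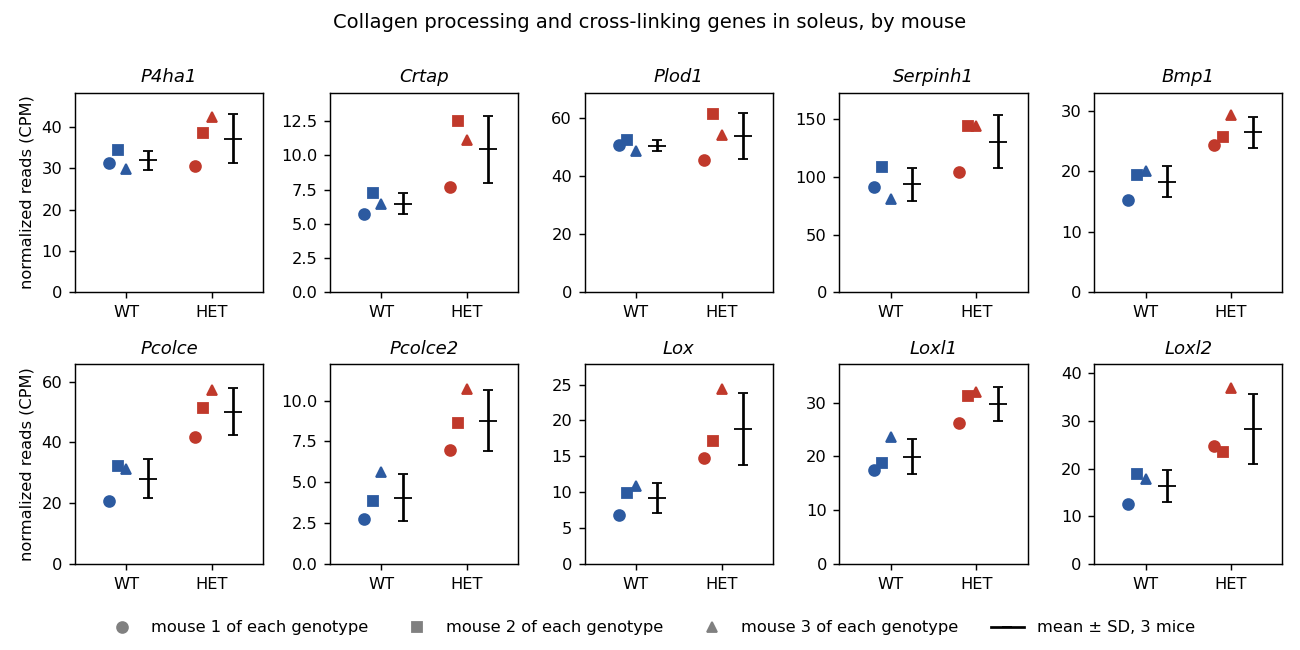
Level of each of the 10 genes in CPM (vertical axes, from 0) in WT (blue) and HET (red) soleus. Each symbol is 1 mouse, and the bar to the right of the symbols is the mean ± SD of 3 mice. In 7 panels all HET mice lie above all WT mice, and in *P4ha1*, *Plod1* and *Serpinh1* the genotypes overlap.

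The same mice were at the ends of the range in most genes. HET mouse 3 had the highest level in 8 of the 10 genes and HET mouse 2 in *Crtap* and *Plod1*. WT mouse 1 had the lowest level in 7 genes, WT mouse 3 in *P4ha1* and *Serpinh1*, and HET mouse 1 in *Plod1*. Among the HET mice alone, mouse 1 was the lowest in 9 of 10. Summed over the 10 genes, the level was 327, 414 and 442 CPM in HET mice 1, 2 and 3, and 255, 306 and 275 CPM in WT mice 1, 2 and 3, so that the sums did not overlap between genotypes.

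Markers of cell types that make or surround the matrix were also higher in HET libraries. The 12 fibroblast markers summed to 449, 387 and 521 CPM in HET mice 1, 2 and 3, and to 283, 326 and 331 CPM in WT mice 1, 2 and 3. All 12 had a higher HET mean, and 1 of them, *Pi16*, a marker of adventitial fibroblasts, passed the test (adjusted p = 0.0452). In 6 of the 12, all HET mice were above all WT mice. The genotypes overlapped in *Pdgfra*, *Ly6a*, *Cd34*, *Smoc2*, *Lum* and *Hic1*. The 9 tenocyte markers, led by *Thbs4* and *Fmod*, summed to 394, 688 and 635 CPM in HET mice 1, 2 and 3. In WT mice 1, 2 and 3 they summed to 129, 273 and 311 CPM. All 9 had a higher HET mean and 0 passed the adjusted threshold (7 at an unadjusted p under 0.05, 2 by DESeq2). The genotypes overlapped in *Scx* alone, at a mean of 28.9 CPM in HET and 26.0 CPM in WT mice. The 12 macrophage markers summed to 112, 89.8 and 130 CPM in HET and to 51.5, 57.6 and 54.9 CPM in WT mice, and 5 of them passed. In contrast, the summed levels of the 6 vascular smooth muscle and the 6 endothelial markers overlapped between the genotypes. The 6 fast-fiber markers summed to between 19500 and 21000 CPM in HET and between 22800 and 25300 CPM in WT mice. All 6 had a lower HET mean, 0 passed the adjusted threshold and 1, *Pvalb*, had an unadjusted p under 0.05. The genotypes overlapped in *Myh1*, *Myh4* and *Mylpf*. *Myh4* varied widely, with 44.7, 2040 and 167 CPM in HET mice 1, 2 and 3, and 1470, 1770 and 976 CPM in WT mice 1, 2 and 3. None of the markers was at 0 reads in all libraries. HET mouse 1 and WT mouse 1 had the lowest tenocyte sums of their genotypes, as they had the lowest sums of the 10 genes. The fibroblast and macrophage sums were also lowest in WT mouse 1 among the WT mice, but in HET mouse 2 among the HET mice. The part of these cells in the levels of the 10 genes was not tested, and in whole muscle fewer cells of a type and less RNA per cell cannot be told apart.

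To set the processing genes beside their substrate, each was divided by the summed reads of *Col1a1*, *Col1a2* and *Col3a1*, the chains of the major fibrillar collagens, in the same mouse. This sum was 1430, 2170 and 2430 CPM in HET mice 1, 2 and 3, and 645, 1160 and 1050 CPM in WT mice 1, 2 and 3. The ratio of the 2 means was 1.08 on the log2 scale, and the genotypes did not overlap. Relative to collagen, 9 of the 10 genes had a lower mean log2 ratio in HET than in WT mice and *Pcolce2* a higher one. For 4 of them, *P4ha1*, *Crtap*, *Plod1* and *Serpinh1*, which act in the ER, the highest HET mouse was below the lowest WT mouse. The collagen sum was higher in HET without overlap, so a gene with equal levels in all mice also gets a lower ratio without overlap. *Plod1* and *P4ha1*, with the smallest log2 fold changes of the 10 (0.09 and 0.22), had the largest drops. The shares of all genes with a lower ratio, or with genotypes that did not overlap in this ratio, were not determined.

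*Plod1* had 31.9, 28.4 and 22.4 reads per 1000 collagen reads in HET mice 1, 2 and 3, and 78.6, 45.0 and 46.3 in WT mice 1, 2 and 3. The difference in the log2 ratio was -1.01, the largest of the set, and WT mouse 1 was well above all others. *P4ha1* had 21.4, 17.8 and 17.5 in HET against 48.8, 29.5 and 28.5 in WT mice, a difference of -0.88. *Serpinh1* had 72.5, 66.3 and 59.4 in HET against 142, 93.9 and 77.0 in WT mice, a difference of -0.62. *Crtap* had 5.40, 5.77 and 4.59 in HET against 8.93, 6.22 and 6.15 in WT mice, a difference of -0.42. Each of these 4 had p = 0.1 in the two-sided exact permutation test, the smallest possible, and 0.25 after adjustment over the 10 genes, so that none could pass the threshold. Without WT mouse 1, which had the least collagen, the differences of *Plod1*, *P4ha1*, *Serpinh1* and *Crtap* were -0.74, -0.63, -0.37 and -0.24.

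Among the secreted genes, *Lox* had 10.3, 7.89 and 10.1 reads per 1000 collagen reads in HET mice 1, 2 and 3, and 10.5, 8.50 and 10.3 in WT mice 1, 2 and 3. Its log2 ratio differed by -0.05 against a pooled SD of 0.19. *Pcolce2* had 4.89, 3.97 and 4.40 in HET and 4.26, 3.29 and 5.36 in WT mice, a difference of 0.06 with a pooled SD of 0.27. The differences of *Pcolce*, *Loxl2*, *Loxl1* and *Bmp1* were -0.23, -0.30, -0.50 and -0.55, with overlapping genotypes in each. With single mice left out, *Loxl2* went to -0.10 without HET mouse 2, and *Loxl1* to -0.33 without WT mouse 1. The sign of *Pcolce2* turned without HET mouse 1 (-0.01) and without WT mouse 2 (-0.12), and that of *Lox* turned without HET mouse 2 (0.07) and, at 0.003, without WT mouse 1. Whether the ER genes differed from the secreted genes in this ratio was not tested. The direction of these ratios hung on the denominator. The sum of the 12 fibroblast markers, to which *Cd34* gave most, was higher in HET by 0.53 on the log2 scale. For this sum too, the shares of all genes with a lower ratio, or with genotypes that did not overlap, were not determined. Relative to it, 3 of the 10 genes (*P4ha1*, *Plod1* and *Serpinh1*) had a lower and 7 a higher mean log2 ratio in HET. *Lox*, at 0.51, was then the only one of the 10 whose genotypes did not overlap.

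**Figure D2:**
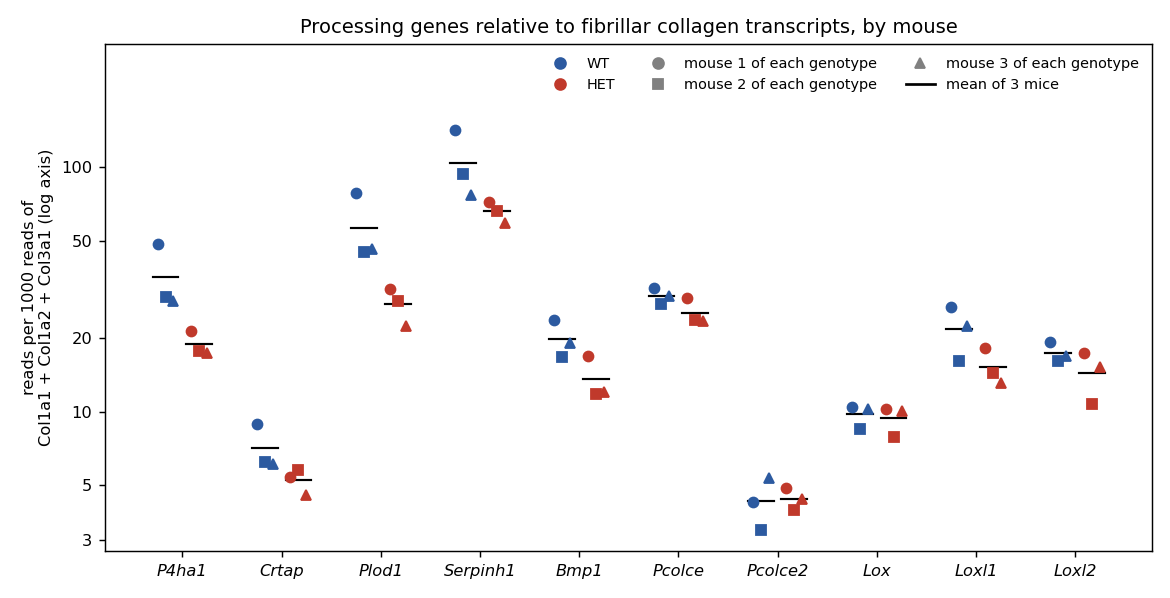
Reads of each gene per 1000 reads of *Col1a1*, *Col1a2* and *Col3a1* in the same library (log axis), in WT (blue) and HET (red) mice, with a line at the mean of 3 mice. *P4ha1*, *Crtap*, *Plod1* and *Serpinh1* on the left have all HET mice below all WT mice, and the other 6 genes overlap.

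The rest of collagen biosynthesis was described with 29 further genes. Of these, 27 passed the filter on low counts, and *Mep1a* and *Mep1b*, with at most 4 reads in any library, did not. In HET, 21 of the 27 had a higher mean and 6 a lower one. Their median log2 fold change was 0.24, and 0 passed the adjusted threshold in edgeR. With an unadjusted p under 0.05, 10 were higher and 0 lower, and DESeq2 called 3 of the 27 as higher: *P3h3*, the N-proteinase *Adamts2* and the ER prolyl isomerase *Fkbp10*, named here because of these values. The 3 genes with the largest log2 fold changes were *P4ha3* at 1.21 (SE 0.43, adjusted p = 0.442), *Loxl4* at 1.13 (SE 0.52, adjusted p = 0.663) and *P3h3* at 0.82 (SE 0.17, adjusted p = 0.117). *P4ha3* is a little-expressed catalytic subunit of prolyl 4-hydroxylase and *Loxl4* the last of the lysyl oxidase paralogs, and both had few reads, between 4 and 34 and between 7 and 73 per library. *P3h3* encodes a member of the prolyl 3-hydroxylase family and had between 146 and 502 reads. At the other end were *Sec23a* at -0.21, a coat protein of the vesicles that leave the ER, *Tll1* at -0.20, a relative of *Bmp1*, and *Tmem38b* at -0.18, an ion channel of the ER membrane. None of these passed the test, with adjusted p-values of 0.657, 0.938 and 0.804.

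By role, the 3 procollagen N-proteinases had a median of 0.61 and the 2 remaining oxidases 0.90, while the 2 tested C-proteinases, *Tll1* and *Tll2*, went both ways with a median of 0.29. Inside the ER, the 5 further genes grouped under prolyl 3-hydroxylation (*P3h1*, *P3h2*, *P3h3*, *P3h4* and *Ppib*) were all higher by the mean. Their median was 0.26, and 4 had an unadjusted p under 0.05. The 4 further lysyl hydroxylases and glycosyltransferases had a median of 0.20, the 3 further prolyl 4-hydroxylase genes 0.15 and the 8 further chaperone and export genes 0.05. The most abundant gene of the list was *P4hb*, the subunit that *P4ha1* pairs with, at 245 ± 5.33 CPM (SD, n = 3) in HET and 222 ± 6.21 CPM in WT. Its log2 fold change was 0.15 (SE 0.08, adjusted p = 0.76), near the 0.22 of *P4ha1*. The partners of *Crtap* in the prolyl 3-hydroxylation complex, *P3h1* and *Ppib*, had log2 fold changes of 0.30 (adjusted p = 0.519) and 0.23 (adjusted p = 0.622), against 0.69 for *Crtap* itself, and these differences between genes were not tested. The 11 fibrillar collagen genes, which are the substrates, were all higher in HET by the mean, with a median of 0.83, and 0 of them passed in edgeR (10 at an unadjusted p under 0.05), while DESeq2 called 4.

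**Figure D3:**
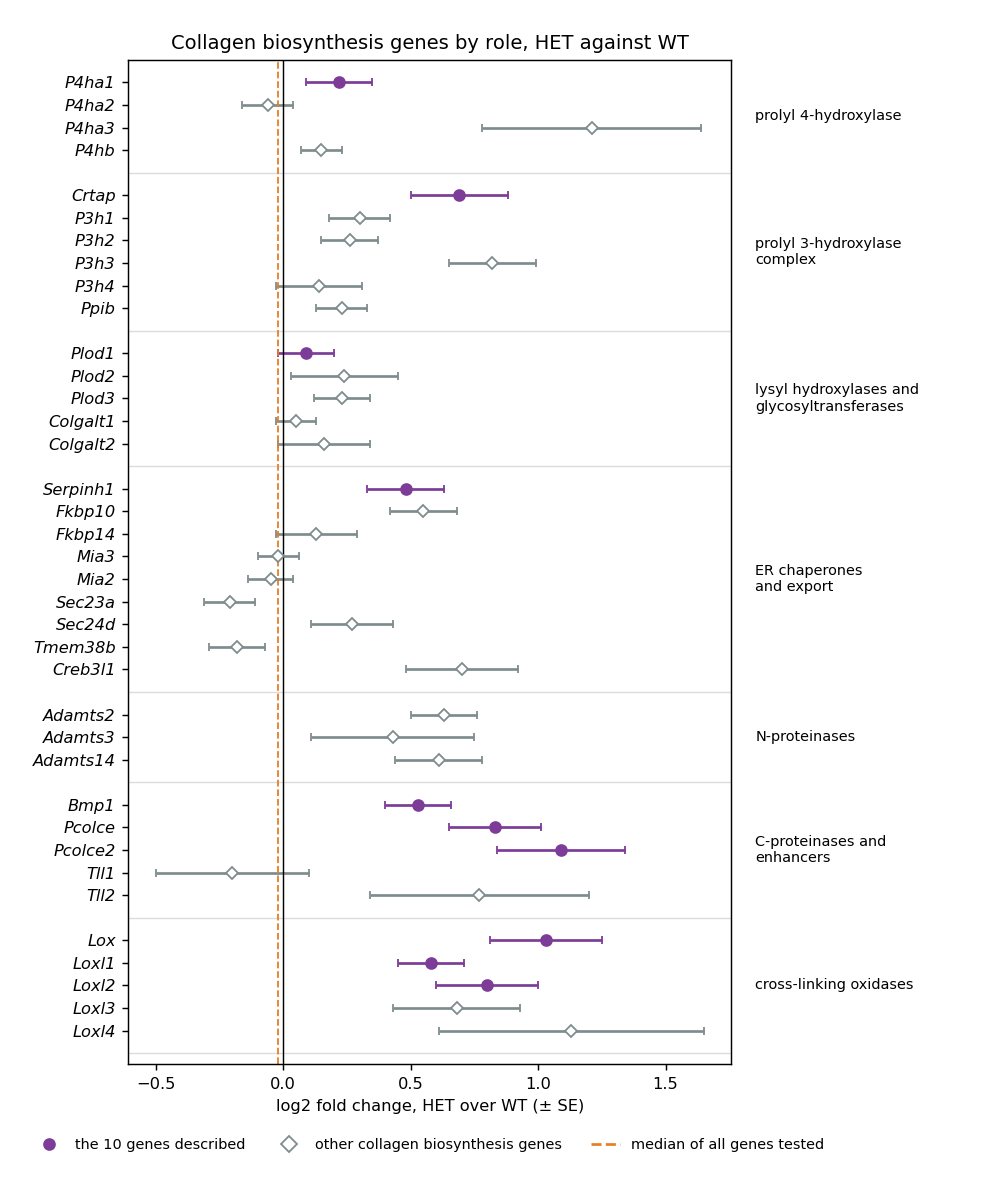
Log2 fold change, HET over WT, with its SE (horizontal axis) for the 10 genes described (filled circles) and the 27 other tested genes of collagen biosynthesis (open diamonds), grouped by role. The dashed line is the median of all genes tested, at -0.02. The 10 genes range from 0.09 for *Plod1* to 1.09 for *Pcolce2*.

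Levels of different genes were compared as CPM per kilobase of exon (RPKM). *Serpinh1* was the most abundant of the 10, at 53.4 ± 9.52 RPKM in HET and 38.4 ± 5.87 RPKM in WT (SD, n = 3 each). Its lowest mouse, at 33.1 RPKM, was above the highest mouse of the next gene, at 15.0 RPKM. After it came *Pcolce* with a mean of 10.2 RPKM over the 6 mice, *P4ha1* with 8.40, *Plod1* with 7.71, *Loxl1* with 7.54, *Bmp1* with 5.95, *Crtap* with 4.78, *Loxl2* with 4.14, *Lox* with 2.90 and *Pcolce2* with 1.39 RPKM. Apart from *Serpinh1* and *Pcolce*, the ranges of all neighbors in this order overlapped over the 6 mice. The order changed in 1 place when the length of the longest protein-coding transcript was used, a choice made after the data were seen: *Plod1* then came before *P4ha1*. By that length, *Serpinh1* had a mean of 49.3 and *Pcolce* of 24.7 CPM per kilobase over the 6 mice. The ranges of these 2 genes then overlapped as well. The exons counted for *Pcolce* (3823 bases) and *Plod1* (6765 bases) are much longer than those transcripts (1585 and 3243 bases), so their RPKM are lower by that much. By mean level in HET mice, the 3 oxidases ranked as *Loxl1* (9.04 ± 0.945 RPKM), *Loxl2* (5.25 ± 1.36 RPKM) and *Lox* (3.90 ± 1.05 RPKM).

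The pattern of the set over the 6 mice was summarized as the mean z-score of log2 CPM over the 10 genes, which was -0.03, 0.93 and 1.18 in HET mice 1, 2 and 3 and -1.15, -0.39 and -0.55 in WT mice 1, 2 and 3. Among 12395 other genes with a mean of at least 1 CPM, the 5 with the highest Pearson correlation to it over the 6 mice were *Tmem119* (r = 0.991), *Sec61a1* (r = 0.989), *Mfap4* (r = 0.988), *Vim* (r = 0.987) and *Col22a1* (r = 0.987). They were picked as the top of that many genes over only 6 libraries that also differ in genotype, so the correlations are a description. *Sec61a1*, the pore through which secreted proteins enter the ER, had 27.5, 34.4 and 36.0 CPM in HET and 22.9, 27.8 and 25.7 CPM in WT mice. *Mfap4*, a microfibril-associated glycoprotein, had 22.1, 30.4 and 34.9 CPM in HET and 12, 17.7 and 18.2 CPM in WT mice. In both, HET mouse 1 was the lowest HET mouse and WT mouse 1 the lowest WT mouse. The mean z-score by which these genes were picked had the same lowest mice. *Col22a1* encodes a collagen of the muscle-tendon junction and *Vim* the intermediate filament of mesenchymal cells.

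For 6 of the 10 genes, a promoter sequence was available from RefSeq for GRCm38.p6, and the 150 bases before the start site were searched on both strands for short motifs. The GC box GGGCGG was found in 4 of these 6 windows (*Pcolce*, *Pcolce2*, *Plod1* and *Serpinh1*), and it is present in 28.6% of the 32851 windows of the same length in the table. The TATA box TATAAA was found in *Crtap* alone, against 7.6% of all windows. The CCAAT box (24.5% of all windows), the AP-1 site TGANTCA (4.2%) and CAGACA, a repeat that SMAD factors can bind (10.3%), had no match in the 6. These matches describe letters in a window only. The windows of *Serpinh1* (chr7:99353240-99353389, minus strand), *Plod1* (chr4:147936777-147936926, minus) and *Crtap* (chr9:114390713-114390862, minus) are printed 5′ to 3′ as the windows of ER genes that held a motif, from genes with log2 fold changes of 0.48, 0.09 and 0.69. The window of *P4ha1*, the remaining ER gene, held none of the motifs and had a GC content of 73.3%. Capitals mark a GC box on either strand or the TATA box.
Serpinh1: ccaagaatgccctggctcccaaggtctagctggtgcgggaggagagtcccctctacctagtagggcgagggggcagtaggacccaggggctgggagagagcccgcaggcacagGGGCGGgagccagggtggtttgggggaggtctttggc
Plod1: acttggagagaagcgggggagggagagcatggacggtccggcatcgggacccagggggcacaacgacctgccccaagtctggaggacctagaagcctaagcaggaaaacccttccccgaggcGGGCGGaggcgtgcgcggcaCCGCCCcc
Crtap: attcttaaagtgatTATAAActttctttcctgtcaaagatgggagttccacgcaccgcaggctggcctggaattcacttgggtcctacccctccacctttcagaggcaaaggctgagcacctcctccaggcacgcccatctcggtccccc
The GC content of these windows was 67.3%, 68.7% and 54.0%.

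Finally, the calls were followed across 18 other ways of processing the counts. *P4ha1* and *Plod1* passed the adjusted threshold in 0 of the 18, *Serpinh1* in 1, *Bmp1*, *Crtap* and *Loxl2* in 2, *Pcolce*, *Lox* and *Loxl1* in 4 and *Pcolce2* in 5. The estimates moved less than the p-values. Over the same 18, the log2 fold change of *Pcolce2* lay between 0.88 and 1.42, that of *Lox* between 0.80 and 1.18, and that of *Pcolce* between 0.66 and 0.95. *Plod1* lay between -0.00 and 0.19 and was the only gene of the 10 whose sign changed.

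**Figure D4:**
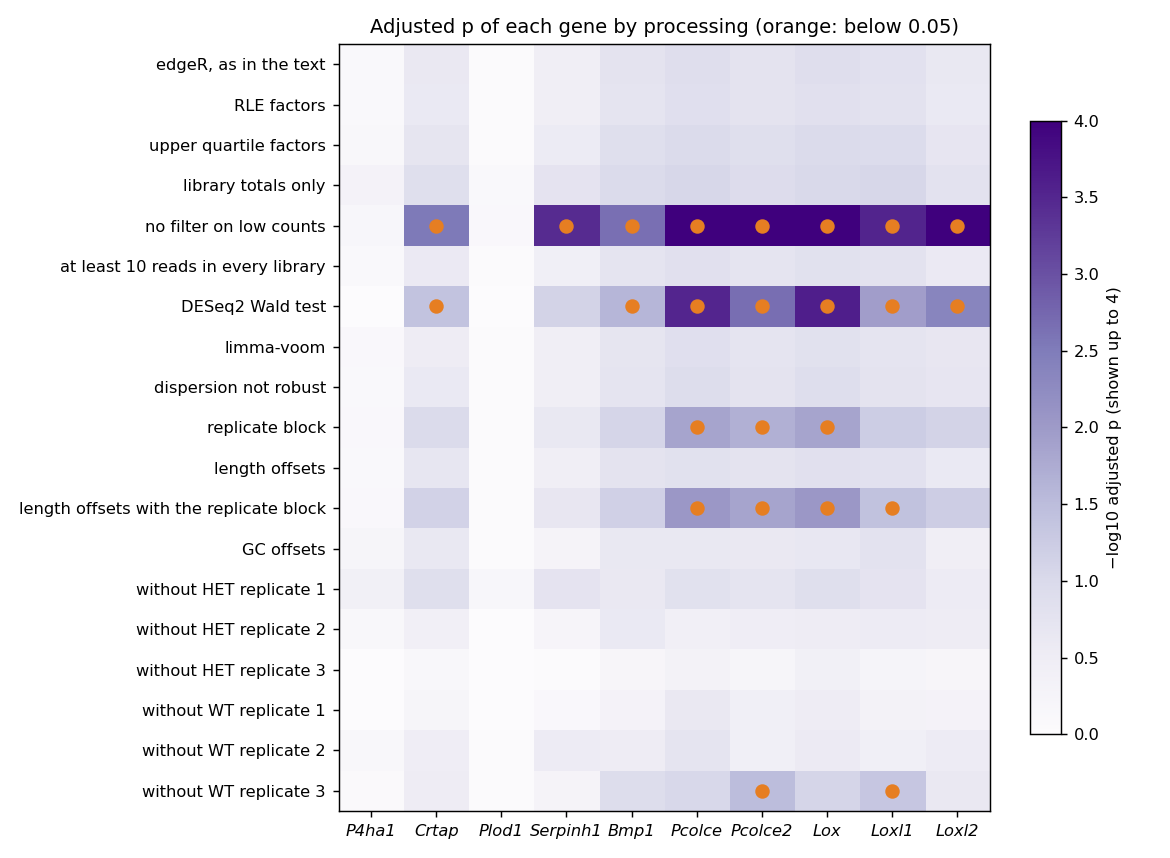
Adjusted p of each gene (columns) as −log10, shown up to 4, in the test used in the text and in 18 alternatives (lines), with an orange dot where it is below 0.05. Most dots are in the 2 lines without a filter on low counts (8 genes) and with DESeq2 (7 genes), and none is in the columns of *P4ha1* and *Plod1*.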

How the data were processed

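RNA from soleus was sequenced from 3 HET and 3 WT mice as single-end reads. The authors aligned reads to GRCm38.p6 with STAR 2.7.3a and deposited raw counts per gene from featureCounts 2.0.3, without normalization. The deposited normalized signal is the raw count divided by a DESeq2 size factor per library. Another deposited table holds the authors' fold changes, standard errors and p-values and was not used. 0 columns of values lacked a sample.

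Raw counts of 14696 genes that passed filterByExpr (minimum count 10) were tested in R 4.3.3 with edgeR 4.0.16 (TMM, robust quasi-likelihood, genotype only, two-sided) and Benjamini-Hochberg adjustment at 0.05. The SE of a log2 fold change is its size over the square root of F. Alternatives used DESeq2 1.42.0 and limma 3.58.1, other scaling, filters, offsets, a replicate block and each mouse left out. Tables were written, and figures drawn, in Python 3.11.15. The main fit, DESeq2, limma-voom, the replicate block, length offsets and the fit without a filter were also run on simulated counts. These had the same dispersion for all genes, and the other steps were not simulated. Symbols, transcripts and transcript lengths came from GENCODE M21, exon lengths from the deposited raw counts, and promoters from RefSeq. The biological coefficient of variation was 0.143. Spread between mice of 1 genotype exceeded counting error, at 16.5 to 46.8 chi-square units per gene, and the p-values measure this spread over 3 mice.

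The 10 genes and all lists were chosen with earlier results of these data known. All 10 were named, with the pathway genes past the threshold or, as none passed, the 3 at each end of the range, and the 5 genes most like the set.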

Additional observations from a re-analysis of the deposited data

How the results depend on the processing

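Reads per library were fewest for *Pcolce2*, between 82 and 469, where counting error adds most to the spread between mice. Over all genes tested, 21 were higher and 1 lower. These counts were 386 and 18 without a filter on low counts, 204 and 9 with DESeq2, 3 and 0 with limma-voom, 6 and 0 with a non-robust dispersion, and 6 higher with GC offsets. Of the 10 genes, 8 were called without the filter and 7 with DESeq2, and of the other collagen biosynthesis genes 4 and 3. The cause of these shifts was not tested. When single mice were left out, between 0 and 77 genes were higher and between 0 and 6 lower, and between 0 and 2 of the 10 genes were called. The 2 were *Pcolce2* and *Loxl1*, without WT mouse 3. Leaving out HET mouse 1, HET mouse 3, WT mouse 1 or WT mouse 2 left 0 genes higher.

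With the replicate block, 114 genes were higher and 2 lower, 3 of the 10 genes (*Lox*, *Pcolce* and *Pcolce2*) and 2 other collagen biosynthesis genes passed. With length offsets and the replicate block, 140 were higher and 2 lower, and 4 of the 10 (*Loxl1* in addition) and 2 others passed. Deviations of same-numbered mice from their group means correlated at 0.203, -0.00578 and -0.0349, and 0.203 was the highest of any HET and WT pair. Not every mouse correlated best with its own number. With 3 mice per genotype, these correlations cannot decide whether the numbers pair the mice.

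The sign reversed for *Plod1* without HET mouse 2 (log2 fold change -0.002, in a range up to 0.195 with single mice left out) and for *Tll1* without WT mouse 2 (0.037, in a range from -0.409). Relative to fibroblast markers, 3 of the 10 genes were lower in HET in place of 9 relative to collagen. With single mice left out, that number lay between 8 and 10, as the collagen ratios of *Pcolce2* and *Lox* changed sign. Without division by length, 3 of the 10 kept their place in the order of levels. Of 180 results for the 10 genes over the 18 alternatives, 155 kept direction and side of the threshold, 24 passed it in the same direction and 1 reversed.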
